A study of Homo sapiens with 6 samples.

Results

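Receptors for interleukins, interferons and tumour necrosis factor (TNF) ligands were followed in GEN2.2, a human line established from a leukaemia of plasmacytoid dendritic cells, with and without stimulation of Toll-like receptor 9. The genes were taken by name: every gene whose platform symbol begins with IL and a number followed by R, or with TNFRSF, CSF2R, CSF3R, IFNAR, IFNGR or IFNLR, leaving out IL3RA. This gave 70 of the 20041 genes with a symbol on the array, measured by 113 probes. The naming rule also takes in genes that are not signalling receptors. Among them are the receptor antagonists IL1RN and IL36RN, the soluble decoys IL22RA2, TNFRSF6B and TNFRSF11B, and the non-coding RNA TNFRSF14-AS1. The decoys IL1R2, IL13RA2, TNFRSF10C and TNFRSF10D are taken in as well. The rule leaves out receptors of the same families with other names, such as CD40. The 2 groups compared had 3 Illumina HumanHT-12 v4 bead arrays each. The ODN2006 group came from GEN2.2 cultures in logarithmic growth given 1 µM of ODN2006, a synthetic oligonucleotide with unmethylated CpG motifs that binds Toll-like receptor 9, for 2 h (the time as the column headers give it). The untreated group came from GEN2.2 cells in logarithmic growth without the oligonucleotide, and both groups were kept in RPMI medium with fetal bovine serum, per the labels. GEN2.2 is a single leukaemic line, no control oligonucleotide was among the samples, and nothing in the labels says that replicates were separate cultures, so the p-values reflect only how far these particular samples scatter, and that scatter may be technical.

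Plasmacytoid dendritic cells sense foreign nucleic acids in endosomes through Toll-like receptors 7 and 9 and answer with type I interferons and inflammatory cytokines. How they then respond to cytokines depends on the receptors they carry. Class I and class II cytokine receptors, which include the interferon receptors, pair a ligand-binding chain with a partner chain and signal through JAK kinases and STAT factors. Receptors of the IL-1 family signal through MyD88 and IRAK kinases, as Toll-like receptors do, and TNF receptors signal through TRAF adaptors or, in the death receptors, through a death domain.

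Between 13454 and 15447 of 47218 probes were detected per array (detection p under 0.01). The median raw signal lay between 107 and 121, and arrays of 1 group correlated at 0.983 to 0.991 against 0.960 to 0.974 between groups. ODN2006 replicate 1 had the fewest detected probes. Of 13 plasmacytoid dendritic cell markers, 11 were detected on all arrays and none passed the test, among them CLEC4C, TCF4, IRF7, IRF8, GZMB and TLR9. NRP1 came nearest with a log2 change of -0.57 (unadjusted p = 0.0310, limma adjusted p = 0.259). IRF8 (0.24) and SPIB (0.32) had ODN2006 values all above the untreated ones, as had 8.48% of all tested genes. LILRA4 was detected on 1 ODN2006 array and PTCRA on no array. Markers of T and NK cells were detected on all arrays of at least 1 group for 2 of 8 genes, CD3G and NKG7. CD3D, CD3E and CD8A were detected on no array. Those of B cells were so detected for 2 of 5, CD79A and CD79B (7.70 after ODN2006 and 7.91 untreated for CD79B), with PAX5 on no array. For stromal cells this held for 1 of 6, COL1A2, with COL1A1 on no array. The monocyte and conventional dendritic cell markers were detected for 7 of 10, CD14, LYZ and CD1C included, while S100A8, CLEC9A and XCR1 were detected on no array. None of these genes passed the test. CD14 (log2 change -0.25) had ODN2006 values all below the untreated ones, as had 12.4% of all tested genes. Summed over its list, the signal of the monocyte and conventional dendritic cell markers was 8473 to 11210 intensity units after ODN2006 and 10727 to 12117 untreated, and that of the plasmacytoid markers was 13351 to 14201 after ODN2006 and 11889 to 13442 untreated. The other sums were 103 to 151 after ODN2006 and 132 to 139 untreated for T and NK cells, 238 to 275 and 266 to 322 in that order of groups for B cells, and 69.2 to 75.5 and 58.6 to 79.4 for stromal cells. The part of these differences in the results was not tested.

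Of the 70 genes, 29 (41.4%) were detected on all 3 untreated arrays, against 42.4% of all genes on the array. All 5 interferon receptor genes were among them, together with IL10RA and IL10RB, both chains of the IL-18 receptor (IL18R1 and IL18RAP), IL4R, IL7R, IL13RA1, IL21R, IL5RA, CSF2RA, IL6R, IL27RA, IL12RB1, IL17RA and IL17RD. The TNF receptor family contributed TNFRSF1A, TNFRSF1B, TNFRSF4, TNFRSF10A, TNFRSF10B, TNFRSF10D, TNFRSF14, TNFRSF18 and TNFRSF21. IL1RN was detected on all 3 ODN2006 arrays and on no untreated array. With IL1RN and the partly detected genes, 41 of the 70 (58.6%) were detected on at least 1 array, against 52.4% of all genes. Another 29 genes were detected on no array, and the remaining 11 on some arrays but not on all 3 of a group. Detection here is a property of each gene's probes, so a gene without detection may still be expressed below background.

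**Figure D1:**
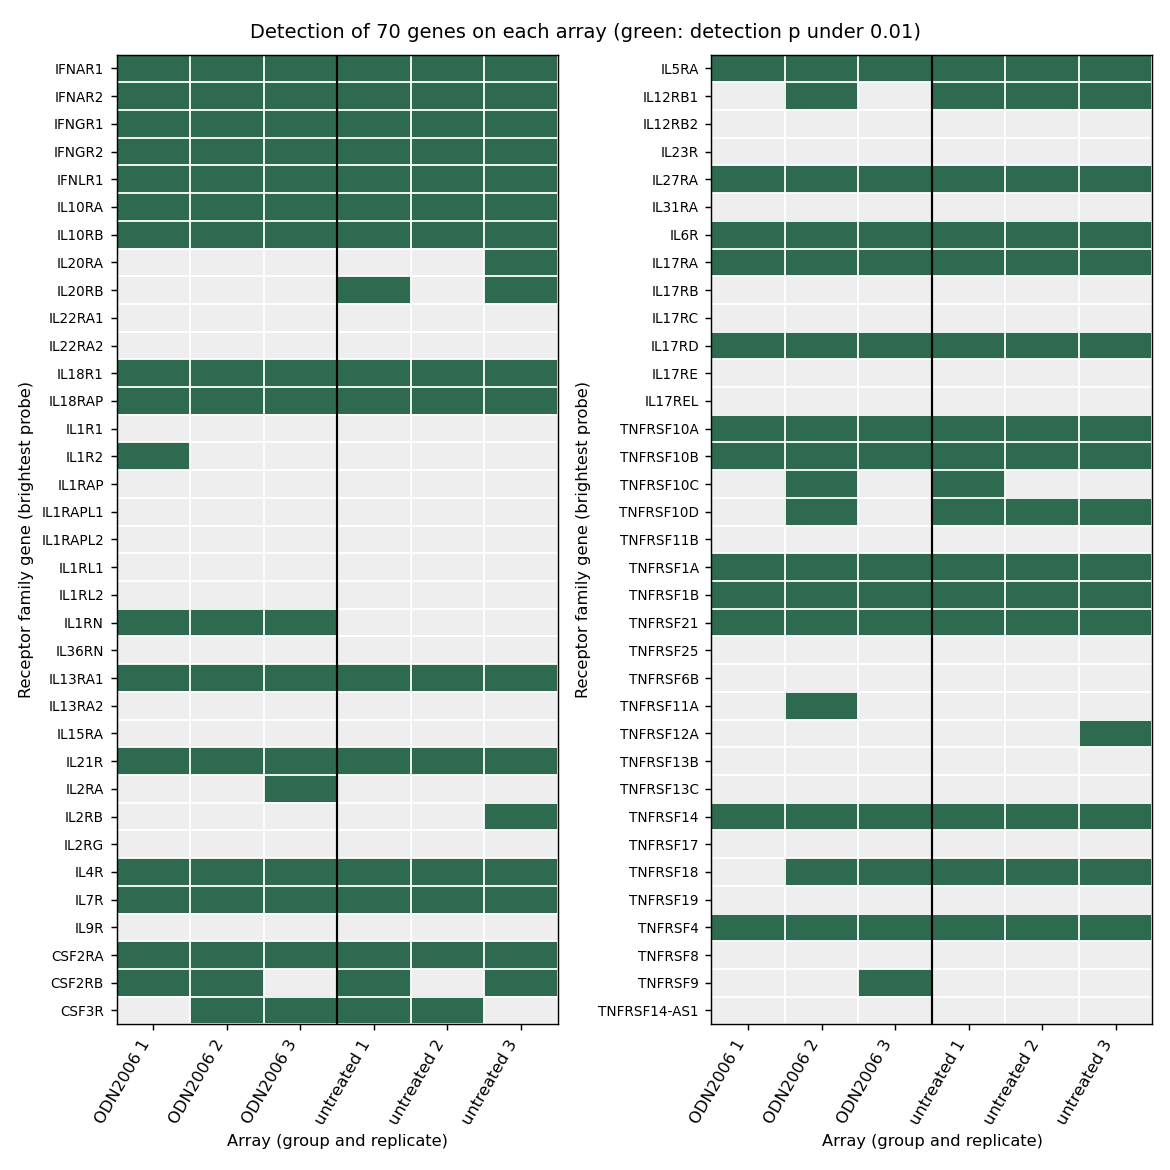
Detection of the 70 genes by their brightest probe (rows) on the 3 ODN2006 and 3 untreated arrays (columns); green marks a detection p under 0.01, and the black line separates the groups. Rows filled across are the genes detected on all 6 arrays, and IL1RN is filled only on the ODN2006 side.

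The 30 genes detected on all arrays of at least 1 group were tested, and 7 of them rose after ODN2006 while none fell. The risers were IL1RN, IL18RAP, TNFRSF4, IL10RA, IFNLR1, IL18R1 and IFNGR2. Of the tested receptor family genes 23.3% rose, against 3.41% of all 8706 tested genes, and 0 fell, against 1.81% (5.23% of all tested genes in either direction). With the replicate number as a block, 9 receptor family genes rose and 1 fell, against 405 rises and 358 falls over all genes (297 and 158 without the block). IL1RN could enter the test only through its detection after ODN2006, which favours a rise. The median log2 change of the 30 genes was -0.06, close to the -0.05 of all tested genes, so the rises stood beside a majority with small differences. Each of the 7 rises kept its call in all alternatives run, including with any 1 array left out. In bulk RNA, more cells with a transcript and more of it per cell cannot be told apart, nor can fewer cells and less per cell.

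**Figure D2:**
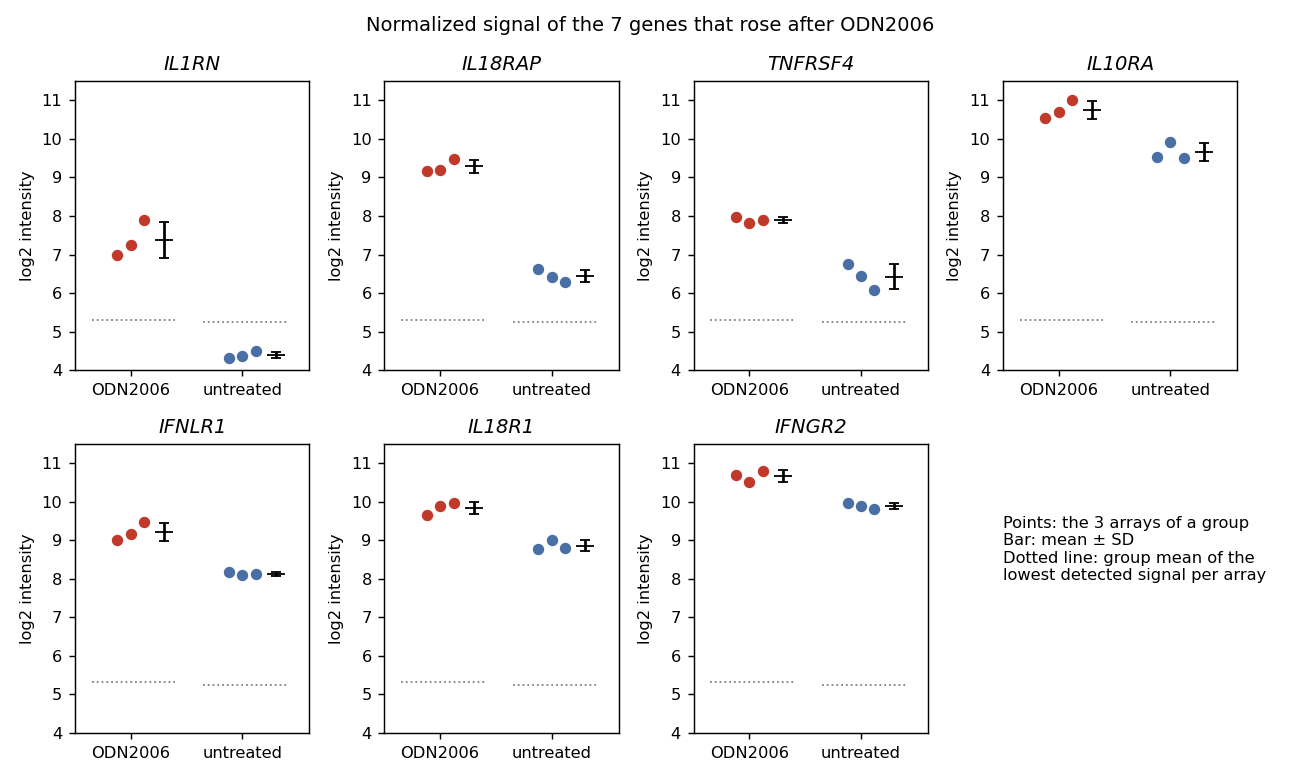
Normalized log2 intensity (vertical axes) of the 7 genes that rose, with 1 point per array, ODN2006 arrays in red and untreated arrays in blue; black bars are the mean ± SD of 3 arrays, and dotted lines the lowest detected signal. In each panel the 3 ODN2006 points lie above the 3 untreated points, and IL1RN alone lies below the detection line when untreated.

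Both chains of the receptor for IL-18, a cytokine of the IL-1 family that induces interferon gamma in lymphocytes, rose. IL18RAP, the accessory chain needed for signalling, had log2 intensities of 9.16, 9.20 and 9.49 on the ODN2006 arrays and of 6.62, 6.42 and 6.29 on the untreated arrays. The groups lay more than 2 log2 units apart. The rise was 7.17-fold (log2 change 2.84 ± 0.16 SE, limma adjusted p = 1.61e-07). IL18R1, the chain that binds IL-18, had 9.65, 9.88 and 9.97 after ODN2006 and 8.77, 9.01 and 8.80 untreated. All ODN2006 values again lay above all untreated ones, with a rise of 1.96-fold (log2 change 0.97 ± 0.15 SE, limma adjusted p = 0.00173). Without background correction the log2 change of IL18RAP was 2.00.

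In the RefSeq gene order IL18R1 and IL18RAP are neighbours on chromosome 2, at the end of a row formed by IL1R2, IL1R1, IL1RL2, IL1RL1, IL18R1 and IL18RAP. Of the first 4 genes of that row, IL1R2, a decoy receptor for IL-1, was detected on 1 ODN2006 array. IL1R1, the signalling receptor for IL-1, IL1RL2, the receptor for IL-36, and IL1RL1, the receptor for IL-33, were detected on no array. IL1RAP, the accessory chain these signalling receptors share, was detected with none of its 3 probes, and IL1RAPL1 and IL1RAPL2, mainly known from neurons, were not detected either. The 2 rises in the IL-1 receptor family were therefore those of its only 2 tested members.

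IL1RN, the gene of the IL-1 receptor antagonist, a secreted protein that occupies the IL-1 receptor without signalling, had log2 intensities of 6.995, 7.24 and 7.88 after ODN2006 and of 4.32, 4.36 and 4.49 untreated. The untreated values lay below the lowest detected signal, which was 5.21 to 5.26 on those arrays. On the background-corrected scale the level after ODN2006 was at least 4.39-fold higher (limma adjusted p = 1.44e-06). This bound depends on the correction: the fitted log2 change was 2.98 with it and 1.34 without it, where the call was kept. Another probe of IL1RN had a log2 change of 2.24, and its remaining probe was detected on no array. IL36RN, the corresponding antagonist for IL-36, was not detected.

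Of the 5 interferon receptor genes 2 rose (3.41% of all tested genes rose), 1 chain each of the receptors for interferon gamma and interferon lambda. IFNGR2, the signalling chain of the interferon gamma receptor, had 10.68, 10.51 and 10.80 after ODN2006 and 9.96, 9.88 and 9.79 untreated (1.72-fold, log2 change 0.79 ± 0.14 SE, limma adjusted p = 0.00624). Its partner IFNGR1, which binds interferon gamma, had 11.71, 12.15 and 11.90 after ODN2006 and 12.26, 12.39 and 12.43 untreated. The 3 ODN2006 values of IFNGR1 lay below the 3 untreated ones, as in 12.4% of all tested genes, and its log2 change of -0.44 ± 0.16 SE did not pass (limma adjusted p = 0.171, and 0.0558 with the replicate number as a block).

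IFNLR1, the ligand-binding chain of the interferon lambda receptor, had 8.99, 9.16 and 9.47 after ODN2006 and 8.18, 8.09 and 8.11 untreated. The groups did not overlap, and the rise was 2.12-fold (log2 change 1.08 ± 0.16 SE, limma adjusted p = 9.83e-04). Its second probe rose as well, by 0.70 on the log2 scale (limma adjusted p = 0.0355). The second chain of this receptor, IL10RB, had a mean of 10.88 ± 0.20 after ODN2006 and 10.99 ± 0.02 untreated (SD, n = 3), with a log2 change of -0.11 ± 0.15 SE that did not pass. IL22RA1, the neighbour of IFNLR1 on chromosome 1 and a chain of the IL-22 receptor, was detected on no array.

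IFNAR1 and IFNAR2, which together bind interferon alpha and beta, did not pass. IFNAR1 had 7.45, 7.41 and 7.25 after ODN2006 and 7.60, 7.34 and 7.37 untreated, and its log2 change of -0.07 ± 0.15 SE had a 95% interval of -0.39 to 0.25. IFNAR2 had 8.23, 8.36 and 8.54 after ODN2006 and 8.44, 8.43 and 8.68 untreated, with a log2 change of -0.14 ± 0.15 SE and an interval of -0.47 to 0.19. Its second tested probe had -0.29 ± 0.20 SE (limma adjusted p = 0.597), and its remaining probe was detected on no array. The groups overlapped for both genes. IFNAR2, IL10RB, IFNAR1 and IFNGR2 follow each other in this order on chromosome 21, so the rise of IFNGR2 stood at the end of a row of 3 receptor genes that did not pass. Whether the change of IFNGR2 differs from theirs was not tested.

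The remaining class II receptor that rose was IL10RA, the chain that binds the anti-inflammatory cytokine IL-10. It had log2 intensities of 10.53, 10.70 and 11.01 after ODN2006 and of 9.52, 9.92 and 9.51 untreated. The lowest ODN2006 value exceeded the highest untreated one, and the rise was 2.14-fold (log2 change 1.09 ± 0.17 SE, limma adjusted p = 0.00214). IL10RA pairs with IL10RB, so that in the receptors for IL-10 and for interferon lambda the private chain rose while the shared chain did not pass. IL20RA and IL20RB, chains of the IL-20 receptor, were detected on 1 and 2 untreated arrays and on no ODN2006 array, and IL22RA2, a soluble decoy for IL-22, on none.

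**Figure D3:**
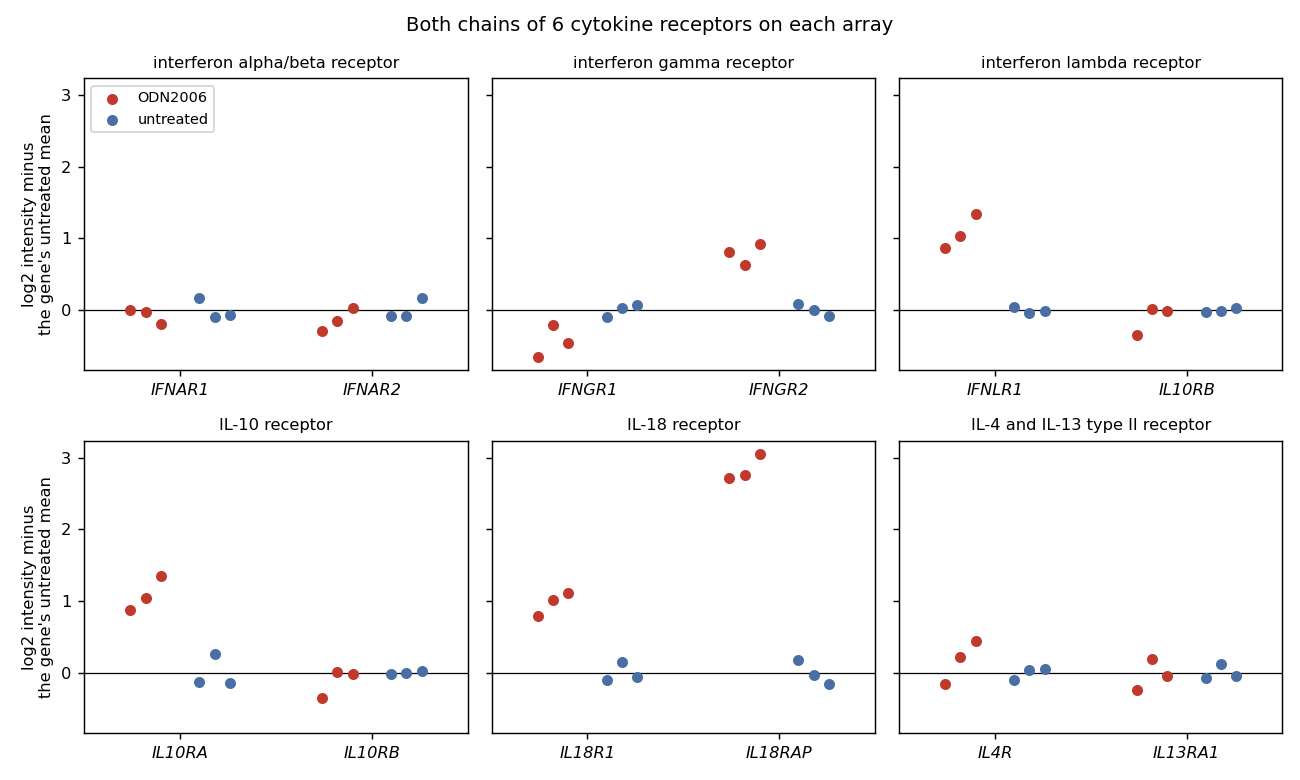
Log2 intensity of both chains of 6 receptors, each array shown as its difference from the gene's untreated mean, with ODN2006 arrays in red and untreated arrays in blue. Both chains of the IL-18 receptor lie above 0 on the ODN2006 arrays, the receptors for interferon gamma, interferon lambda and IL-10 have 1 such chain each, and those for interferon alpha/beta and for IL-4 and IL-13 have none.

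The promoters of these genes are shown for the letters that NF-kB and AP-1, transcription factors activated downstream of Toll-like receptor 9, are known to bind. RefSeq windows of 300 bases (250 before to 50 after a start, GRCh38.p14) were at hand for 6 of the 7 risers, with TNFRSF4 left over, and for 18 of the 23 other tested genes. The NF-kB consensus was found on either strand in 1 of 6 risers (IFNGR2) and 5 of 18 others. Counted by window, since a gene can have several, it was in 1 of 11 windows of risers and 6 of 22 of the others, and in 5.91% of all 35116 windows. Among the others, CSF2RA was counted on both chromosome X and chromosome Y, with the same match at the same positions. The AP-1 site TGANTCA was found in 2 of 6 risers (IL10RA and IL1RN) and 1 of 18 others (IL6R), which is 2 of 11 and 1 of 22 windows, and in 7.71% of all windows. The stretches below lie on the + strand, read 5′ to 3′, and have the matched letters in capitals. IL27RA, which did not pass, carries the same NF-kB letters as IFNGR2 in the opposite orientation, and the last stretch is that of IL18RAP, the receptor chain with the largest rise, in which neither motif was found. A match is a string of letters and says nothing about binding in these cells.
IFNGR2, chr21:33403269-33403368, 144 to 45 bases before the start: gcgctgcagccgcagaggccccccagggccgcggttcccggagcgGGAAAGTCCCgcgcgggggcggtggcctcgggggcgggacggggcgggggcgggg
IL27RA, chr19:14031649-14031748, 113 to 14 bases before the start: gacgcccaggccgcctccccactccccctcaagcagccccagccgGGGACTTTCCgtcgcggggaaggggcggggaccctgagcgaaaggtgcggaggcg
IL10RA, chr11:117989827-117989923, 118 to 22 bases before the start: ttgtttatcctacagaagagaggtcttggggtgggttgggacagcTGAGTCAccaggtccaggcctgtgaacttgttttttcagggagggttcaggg
IL1RN, chr2:113117721-113117799, 250 to 172 bases before the first of its starts: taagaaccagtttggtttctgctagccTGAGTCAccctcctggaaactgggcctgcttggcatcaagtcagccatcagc
IL18RAP, chr2:102418521-102418620, 100 bases up to the first of its starts: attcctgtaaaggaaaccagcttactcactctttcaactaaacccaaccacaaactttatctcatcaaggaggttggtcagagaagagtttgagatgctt

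In the TNF receptor family 1 of 9 tested genes rose, against 3.41% of all tested genes. TNFRSF4, which encodes OX40, a co-stimulatory receptor best known from activated T cells, had log2 intensities of 7.98, 7.81 and 7.90 after ODN2006 and of 6.74, 6.44 and 6.09 untreated. All ODN2006 values lay above all untreated ones (2.78-fold, log2 change 1.47 ± 0.17 SE, limma adjusted p = 1.98e-04). Without background correction its log2 change was 0.89. Its other probe was detected on no array. TNFRSF18 (GITR), which neighbours TNFRSF4 on chromosome 1, had 4.64, 5.90 and 6.43 after ODN2006 and 5.61, 5.75 and 6.15 untreated, and was not detected on ODN2006 replicate 1. The ODN2006 values of TNFRSF18 thus spanned those of the untreated arrays, and its log2 change of -0.18 ± 0.35 SE had an interval of -0.95 to 0.58.

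The receptors for TNF itself and for TRAIL, a ligand that can trigger apoptosis, did not pass. TNFRSF1A, the TNF receptor with a death domain, had 8.56, 8.98 and 9.37 after ODN2006 and 9.34, 9.48 and 9.69 untreated. Only ODN2006 replicate 3 reached the untreated range, and the log2 change of -0.53 ± 0.20 SE did not pass (limma adjusted p = 0.203), but passed with the replicate number as a block (0.0327). TNFRSF1B, the second TNF receptor, had a log2 change of -0.07 ± 0.17 SE (10.01 ± 0.28 after ODN2006, 10.08 ± 0.11 untreated, SD, n = 3). TNFRSF10B, a death receptor for TRAIL, had 9.64, 9.77 and 9.73 after ODN2006 and 9.13, 9.37 and 9.12 untreated. The groups of TNFRSF10B did not overlap, as in 8.48% of all tested genes with higher ODN2006 values. Its log2 change of 0.50 ± 0.14 SE did not pass (limma adjusted p = 0.0721), but passed with the replicate block (0.0253), with a trended and robust variance prior (0.0347) and without background correction (0.0200). Its other 2 probes, each detected on 2 ODN2006 arrays and no untreated array and not tested, differed by 0.56 and 0.87 in the same direction. The other tested TRAIL receptors did not pass either. TNFRSF10A averaged 5.86 after ODN2006 and 5.92 untreated (-0.05 ± 0.20 SE), and TNFRSF10D, a decoy detected on 1 ODN2006 array, averaged 5.08 after ODN2006 and 5.38 untreated (-0.29 ± 0.26 SE). TNFRSF21, death receptor 6, averaged 9.58 after ODN2006 and 9.65 untreated (-0.07 ± 0.14 SE). TNFRSF14, the receptor for LIGHT, averaged 10.57 after ODN2006 and 10.46 untreated (0.11 ± 0.16 SE). The differences of these 4 genes were smaller than or close to their errors.

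**Figure D4:**
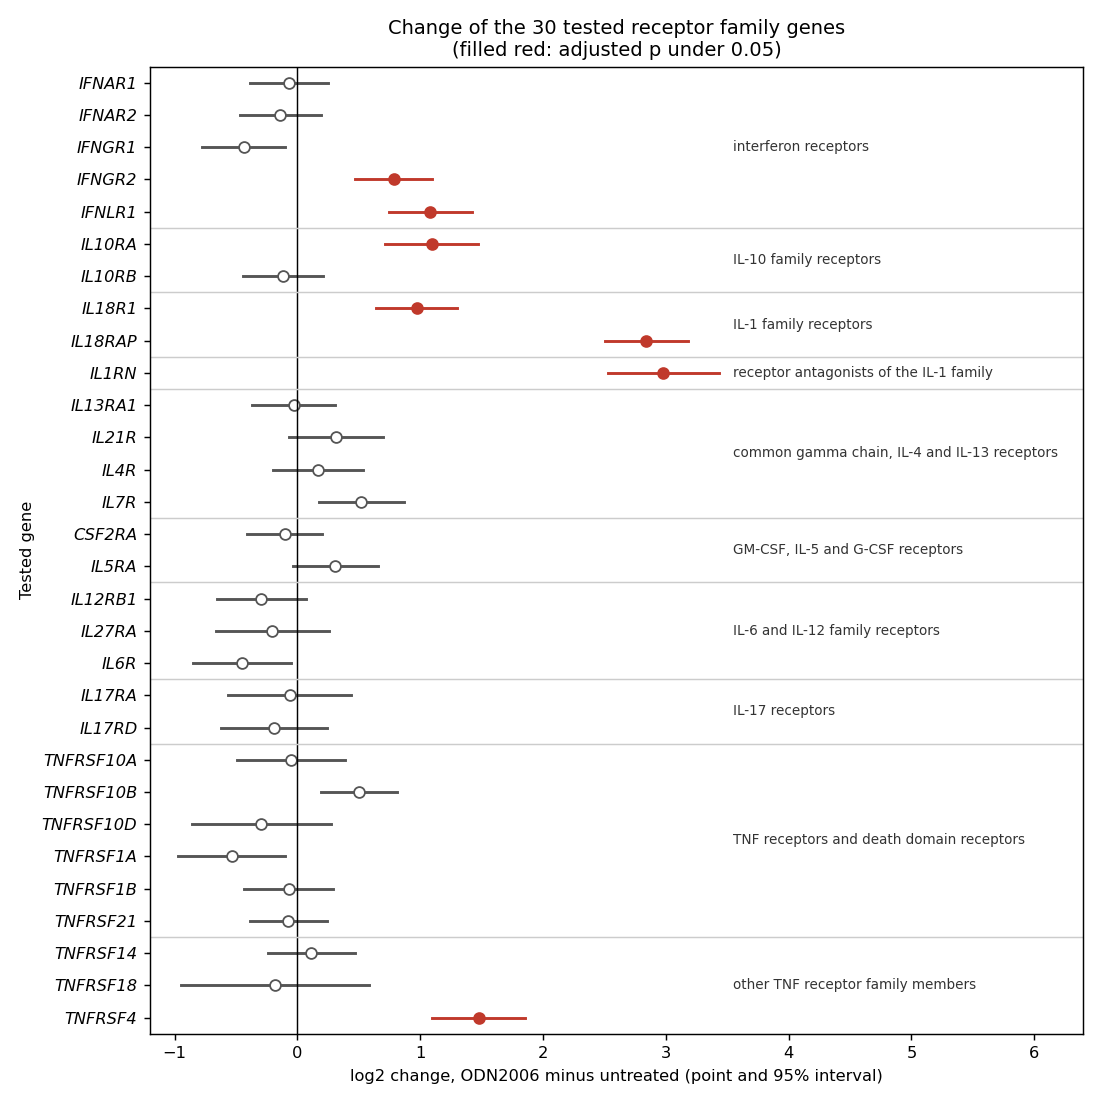
Log2 change, ODN2006 minus untreated, of the 30 tested genes (rows, grouped by family) with 95% intervals of the limma fit, from 3 arrays per group. The 7 filled red points are the genes with an adjusted p under 0.05, all to the right of 0, and the intervals of the 23 open points lie within 2-fold in either direction. For IL12RB1, TNFRSF10D and TNFRSF18, not detected on every ODN2006 array, the interval does not limit a fall below detection.

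No gene of the other interleukin and colony-stimulating factor receptors passed. IL7R, the IL-7 receptor chain, came nearest with 9.41, 9.33 and 9.69 after ODN2006 and 8.75, 9.07 and 9.05 untreated. The groups of IL7R did not overlap, as in 8.48% of all tested genes with higher ODN2006 values. The log2 change of IL7R, 0.52 ± 0.16 SE, did not pass (limma adjusted p = 0.102), but passed with the replicate block (0.0357). Its second probe had 0.48. IL21R, which binds IL-21, averaged 7.79 after ODN2006 and 7.48 untreated (0.31 ± 0.17 SE). IL5RA, which binds IL-5, averaged 6.06 after ODN2006 and 5.75 untreated (0.31 ± 0.16 SE), and IL4R, which binds IL-4, 7.86 after ODN2006 and 7.69 untreated (0.17 ± 0.17 SE). These 3 differences were positive, as was that of IL7R, and those of the 7 genes that follow were negative. IL6R, which binds IL-6, averaged 6.50 after ODN2006 and 6.95 untreated (-0.45 ± 0.18 SE) (limma adjusted p = 0.251). The second probe of IL6R had -0.38 ± 0.16 SE (limma adjusted p = 0.264). IL12RB1, a chain shared by the receptors for IL-12 and IL-23, averaged 5.29 after ODN2006 and 5.58 untreated (-0.29 ± 0.17 SE). It was detected on 1 ODN2006 array and entered the test only through the untreated arrays, which favours a fall. IL27RA, a chain of the IL-27 receptor, averaged 7.47 after ODN2006 and 7.67 untreated (-0.20 ± 0.21 SE). Neither of these chains passed. IL17RA, a chain shared by several IL-17 receptors, averaged 7.61 after ODN2006 and 7.68 untreated (-0.06 ± 0.23 SE), IL17RD 11.46 after ODN2006 and 11.65 untreated (-0.19 ± 0.20 SE), IL13RA1 10.95 after ODN2006 and 10.98 untreated (-0.03 ± 0.16 SE) and CSF2RA 12.59 after ODN2006 and 12.69 untreated (-0.10 ± 0.14 SE). By their brightest tested probes, all 23 genes that did not pass had fitted 95% intervals within a 2-fold change either way. A second tested probe of TNFRSF18, at -0.45 ± 0.26 SE, had an interval that reached past a 2-fold fall. IL12RB1, TNFRSF10D and TNFRSF18 were not detected on every ODN2006 array, so for them the interval does not limit a fall below detection. Of these 23 genes, 2 were higher and 3 lower at an unadjusted p under 0.05. The share of all tested genes at that threshold was not worked out, so these counts are description only. ODN2006 replicate 1, the array with the fewest detected probes, held the lowest of the 6 values for 14 of the 30 tested genes. The risers could not be among these, since all their untreated values lay below their ODN2006 values. For IL17RA it read 7.01, against 7.81 and 8.03 on the other ODN2006 arrays and 7.63, 7.57 and 7.83 untreated.

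Partner chains were not always detected together. IL2RG, the common gamma chain that IL7R and IL21R use for signalling, was detected on no array, as were IL9R and IL15RA. IL2RA was detected on ODN2006 replicate 3 only and IL2RB on untreated replicate 3 only. CSF2RA, the ligand-binding chain for GM-CSF, was bright at 12.59 ± 0.08 after ODN2006 and 12.69 ± 0.10 untreated (SD, n = 3), while CSF2RB, the shared signalling chain, was detected on 2 arrays of each group. IL4R and IL13RA1, which form the type II receptor for IL-4 and IL-13, were both detected on all arrays, and IL13RA2, a decoy for IL-13, on none. IL6R and IL27RA use the signal transducer IL6ST, which was detected on all arrays with a log2 change of 0.22 that did not pass. IL12RB1 was tested, but its partners IL12RB2 (for IL-12) and IL23R (for IL-23) were detected on no array. Among IL-17 receptors IL17RA and IL17RD were detected, and IL17RB, IL17RC, IL17RE and IL17REL were not. IL31RA was not detected, and CSF3R, the G-CSF receptor, was detected on 2 arrays of each group.

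Some of these statements rest on 1 of several probes. For IL17RD 1 probe was bright, at 11.46 ± 0.37 after ODN2006 and 11.65 ± 0.23 untreated (SD, n = 3), and the other 2 were detected on no array. For IL21R 1 of 4 probes was detected on all arrays, and for IL5RA 1 of 2. For IL12RB1 1 of 3 probes was tested. The 4 probes of CSF2RA, by contrast, were detected on all arrays, with log2 changes of -0.10, 0.09, 0.03 and -0.05.

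The other TNF receptor family genes were not tested. TNFRSF9 (4-1BB), the receptor for TNFSF9, was detected on ODN2006 replicate 3 only, with 4.94, 5.02 and 5.34 after ODN2006 and 4.64, 4.89 and 4.67 untreated. TNFRSF11A (RANK) was detected on ODN2006 replicate 2 only, TNFRSF12A (the TWEAK receptor) on untreated replicate 3 only, and TNFRSF10C, a TRAIL decoy, on 1 array of each group. TNFRSF13B, TNFRSF13C and TNFRSF17, the receptors for BAFF and APRIL on B lineage cells, were detected on no array, and neither were TNFRSF8 (CD30), TNFRSF19, TNFRSF25 (death receptor 3), the decoys TNFRSF6B and TNFRSF11B, and TNFRSF14-AS1. The mean log2 values of the 40 untested genes lay between 4.31 and 5.53 after ODN2006 and between 4.35 and 5.43 untreated.

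Among 20 receptors of the same families with other names, 18 were on the array with a symbol and 4 were tested. CD40, the TNF receptor family member through which T cells activate dendritic cells, rose to 9.36 ± 0.31 after ODN2006, against 6.86 ± 0.25 untreated (SD, n = 3, 5.66-fold, limma adjusted p = 3.64e-06). Without background correction its log2 change was 1.84. LTBR, the lymphotoxin beta receptor (-0.58, limma adjusted p = 0.0892, and 0.0262 with the replicate block, 0.0449 with the trended and robust prior), CSF1R (-0.22) and IL6ST did not pass. Of 37 ligand genes on the array 15 were tested, and 9 rose and none fell, against 3.41% and 1.81% of all tested genes. Of these 9, IFNB1 and IL6 were detected on no untreated array and TNFSF18 on 2, so that the ODN2006 arrays alone let them pass the detection filter, and a rise was then the likelier outcome. IL6 was at least 1.90-fold higher on the background-corrected scale, with a fitted log2 change of 1.56 (0.57 without background correction), and its call was lost in the fit without a detection filter (limma adjusted p = 0.0633).

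Set beside their ligands, chosen after the values were seen, the receptors fell into several cases. IFNB1, which encodes interferon beta, was detected on no untreated array and, on the background-corrected scale, at least 110-fold higher after ODN2006 (fitted log2 change 7.65, and 5.38 without background correction), while IFNAR1 and IFNAR2 were detected in both groups and did not pass. IL1B rose by 5.37 ± 0.17 SE on the log2 scale (4.19 without background correction), with IL1R1 and IL1RAP undetected and IL1RN higher. IL18, the ligand of the receptor with both chains higher, was bright in both groups (13.84 ± 0.19 after ODN2006, 13.90 ± 0.06 untreated, SD, n = 3) and did not pass, as was IL10 (12.84 ± 0.12 after ODN2006, 12.90 ± 0.17 untreated, SD, n = 3). The highest value on any array was 14.44, so IL18 lay near the top of the scale, as did TNF (13.91) and LTA (13.79) after ODN2006. IL23A, the gene of only 1 of the chains of IL-23, rose by 4.13 ± 0.14 SE, with IL23R undetected. IL12B, the gene of the other chain, was detected on no array. Of the TNF family ligands, TNFSF9 (3.34 ± 0.19 SE, and 2.45 without background correction), LTA (2.74 ± 0.14), CD70 (2.21 ± 0.20), TNF (2.01 ± 0.14) and TNFSF18 (1.43 ± 0.23, and 0.57 without background correction) rose. The receptor CD27 of CD70 was detected on no array, and TNFSF4, the ligand of OX40, on 1 ODN2006 array only. The rise of TNFSF18 was lost in the fit without a detection filter (adjusted p = 0.0664).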

How the data were processed

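Total RNA was amplified, labelled and hybridised to bead arrays, per the labels' protocols. The authors deposited a non-normalized table of probe intensity on a linear scale with a detection p-value per probe and array, per the file headers. They also deposited log2 values, for which the submitters' processing notes name limma and whose steps are not given in the sources used here and in which the groups have different distributions. These were an alternative only. Intensities were corrected by normexp with background inferred from detection p-values (offset 16), quantile-normalized over the 6 arrays and taken to log2 (limma 3.58.1, R 4.3.3). A probe entered the test if all 3 arrays of either group had a detection p under 0.01 (13816 probes). A gene is its brightest tested probe, or its brightest probe where none was tested. Of 47218 probes 30107 had 1 symbol, 8 several and 17103 none, and all 70 member symbols matched the RefSeq table of GRCh38.p14.

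The comparison used limma's moderated two-sided test (lmFit, eBayes) with no covariate, and p-values were adjusted by Benjamini-Hochberg over all tested probes (threshold 0.05). The test was checked on simulated data. A gene undetected on all arrays of a group is given as at least N-fold, against the higher of that array's lowest detected signal and its own. The number of arrays limits the precision. Same-numbered arrays, by sample title, deviated together from their group means (r = 0.41, 0.35 and 0.46 over tested probes), so the numbers appear to pair the samples, by the data and not the labels, and the replicate block was run as an alternative. The others were median scaling, no background correction, the deposited values, no filter and a stricter filter, a trended robust prior, array weights, the mean of probes and leaving out each array. A slide block was not run because the files name no slides.

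The members and lists were chosen with earlier results of these data known. All members may be named. From each context list (JAK and STAT, TNF receptor adaptors, receptors named otherwise, ligands, cell type markers) up to 4 called genes with the largest change are named, or up to 2 of the brightest. Other named genes were chosen after their values were seen, as was the AP-1 site.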

Additional observations from a re-analysis of the deposited data

How the results depend on the processing

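Signal over background limits these data: 40 of the 70 genes could not be tested, and each array detected 28.5% to 32.7% of its probes. The 7 rises kept direction and call in 42 fits with 1 array left out and in 62 other fits (IL1RN could not enter the stricter filter). Receptor family genes that rose numbered 6 to 9 over the alternatives. With the replicate block 9 rose, IL7R and TNFRSF10B added, and 1 fell (TNFRSF1A), and the block changed no other call among them. Of the 23 genes that did not pass, 126 of 138 leave-one-out values and 195 of 204 others kept direction and side of the threshold, 5 passed, and the rest changed sign. In log2 units the changed signs were 0.036 with median scaling and 0.018 with the deposited values for IL13RA1, 0.11 for IL17RA and 0.090 for TNFRSF18 with array weights, and, among ligands, 0.012 for IL10 with median scaling and 0.00058 for IL18 with array weights. With 1 array left out the values ran from -0.12 to 0.013 for IFNAR1, -0.18 to 0.0028 for IL10RB, -0.14 to 0.076 for IL13RA1, -0.27 to 0.24 for IL17RA, -0.32 to 0.024 for IL17RD, -0.28 to 0.12 for TNFRSF10A, -0.0024 to 0.26 for TNFRSF14, -0.57 to 0.33 for TNFRSF18, -0.17 to 0.091 for TNFRSF1B, -0.14 to 0.025 for IL10 and -0.15 to 0.038 for IL18. Over all genes the falls were 104 with median scaling, 58 without a detection filter, 358 with the block, and 51 to 117 with 1 array left out, against 158. Detected untreated were 31 of the 70 genes at a detection p under 0.05 and 32 with 2 of 3 arrays required, against 29. The causes were not tested.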

Other observations

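Genes that carry the signal from these receptors changed in part. Of 13 listed TNF receptor adaptors, 10 were on the array with a symbol and 8 tested, of which 3 rose and 1 fell (5.23% of all tested genes were called in either direction). TRAF1, an adaptor of several TNF receptors, had a log2 change of 1.79 ± 0.20 SE (limma adjusted p = 1.29e-04), and 0.84 without background correction. TRAF1 was detected on 2 of 3 untreated arrays and entered the test only through its detection after ODN2006, which favours a rise. CFLAR, an inhibitor of death receptor signalling, had a log2 change of 1.43 ± 0.17 (1.98e-04). BIRC2, a ubiquitin ligase of the TNF receptor complex, had 0.72 ± 0.17 (0.0274), a call lost with median scaling, in the fit without a detection filter and without any of 4 arrays (ODN2006 replicate 2 or 3, untreated replicate 1 or 2), with adjusted p up to 0.126. FADD, which links death receptors to caspases, fell to 7.21 ± 0.19 after ODN2006, against 8.13 ± 0.17 untreated (SD, n = 3, log2 change -0.92 ± 0.16 SE, limma adjusted p = 0.00374), and kept its call in all alternatives run. TRADD (0.07), TRAF3 (0.39), TRAF6 (0.38) and MAP3K14 (0.08) did not pass.

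Of 11 listed JAK and STAT genes, 9 were on the array with a symbol and 7 tested, of which 1 rose (3.41% of all tested genes rose). STAT5A had a log2 change of 0.56 ± 0.14 SE (limma adjusted p = 0.0425), a call lost without any 1 of the 6 arrays, with median scaling and in the fit without a detection filter, with adjusted p up to 0.177. The other 6, TYK2 (-0.01) and STAT6 (0.03) the brightest among them, did not pass, and JAK3 and STAT4 were detected on no array.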
